A study of Arabidopsis thaliana with 42 samples.

Results

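The warm growth response of vil1 seedlings was read from 4 RNA-seq libraries, 2 from plants grown at 22 °C and 2 from plants grown at 27 °C, out of 12 RNA-seq libraries and 42 samples in the series. The libraries were chosen by their labels alone, and all 34262 features of the table were considered, of which 31454 passed a filter on low values (RPKM of 1 or more in at least 2 of the 12 libraries) and were tested. All plants were Arabidopsis thaliana of the Col-0 ecotype, sampled whole as seedlings aged 14 days at ZT 6. The vil1 plants carried the vil1-1 allele at both temperatures, and wild type (WT) plants at 22 and 27 °C, again 2 libraries each, served for comparison. The remaining 4 libraries, from arp6 and arp6vil1 plants at 22 °C, were not compared with vil1. They entered the filter, the spread and variance trend of the fit, and the alternative scalings. Their make-up differed from that of the vil1 libraries. The arp6 libraries had 6651 and 6566 features at 0, against 124 to 194 in vil1. Chloroplast-encoded genes held 17.0% and 14.9% of all RPKM in arp6vil1, against 7.16% to 7.57% in vil1. Long and short days are both mentioned in the labels, without saying which was used for RNA, and vil1 is represented by 1 allele.

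VIL1, listed here as VRN5, is a PHD-finger protein that works with Polycomb repressive complex 2, the complex that writes the repressive mark H3K27me3, and it is best known for the silencing of the flowering repressor FLC after cold. Warm but not stressful growth temperatures change Arabidopsis seedlings in shape and timing, with PIF4, auxin synthesis by YUC8 and the evening complex of the clock among the known regulators. Protein-folding capacity is set by heat shock factors, which switch on small heat-shock proteins and chaperones when proteins begin to unfold.

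Levels are given in RPKM, reads scaled to sequencing depth and to gene span in kilobases, and changes are differences of log2(RPKM + 1), 27 minus 22 °C, with the standard error (SE) from limma. A gene is said to have risen or fallen only when its p-value, adjusted by Benjamini-Hochberg over all 31454 features, was under 0.05. The 4 vil1 libraries held 73.5 and 86.9 M (mega) reads at 22 °C and 81.0 and 58.6 M reads at 27 °C. These depths were worked out from the table itself. The 2 vil1 libraries of a temperature correlated at r = 0.989 at 22 °C and 0.988 at 27 °C over genes, against 0.983 to 0.986 between temperatures. In WT the 2 libraries correlated at 0.9816 at 22 °C and 0.9855 at 27 °C. The 22 °C value was below the 0.9867 between the first WT and the first vil1 library at 22 °C. The second WT library at 22 °C correlated at 0.956 to 0.970 with the 27 °C WT and the vil1 libraries. Nothing in the labels says that the 2 libraries of a group came from separate cultures, so the spread between libraries may be technical. SE and p-values rest on the spread within all 6 groups of the 12 libraries, not within vil1 alone. The SE of a gene is therefore the same in vil1 and WT. Few features were at 0 in a vil1 library (124 to 194 of 34262). The 10th percentile of nuclear coding genes was 0.66 to 0.88 RPKM there, so levels near 1 RPKM lie at the low end. In whole seedlings, fewer cells of a type and less RNA per cell cannot be told apart.

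The transcript of the mutated gene gave no check of the genotype. VRN5 stood at 5.13 and 5.38 RPKM in vil1 at 22 °C and at 6.91 and 6.27 RPKM at 27 °C, against 6.71 and 6.67 RPKM in WT at 22 °C and 8.71 and 8.29 RPKM at 27 °C. It was therefore present in every vil1 library, and its warm change in vil1 (0.28, SE 0.08, adjusted p = 0.129) did not pass.

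At 27 °C, 610 features rose in vil1 (1.94% of those tested) and 145 fell (0.461%), 2.4% in either direction. The leading rises were heat-shock proteins, anthocyanin enzymes, iron-regulatory bHLH factors and xyloglucan-modifying enzymes, and the leading falls included RADIALIS-like MYB factors, 2 glutathione transferases, SPX1 and light-harvesting proteins. Of these features, 112 rose and 25 fell by at least 1 on the log2 scale. The median change of all tested features was 0.11, and the 2 libraries at 27 °C both lay above both at 22 °C for 43.7% of features and both below for 10%, so separated groups alone were common, more so upwards. Every called feature was separated in this way, so the separation of a called gene is no further support for its call. The balance of rises and falls depended on scaling. Centring each library on its median shifted the median change by -0.15 and gave 266 rises and 363 falls, quantile normalization gave 379 and 332, and removal of a trend with gene span gave 391 and 400. List medians below should be read against the 0.11 of all features.

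**Figure D1:**
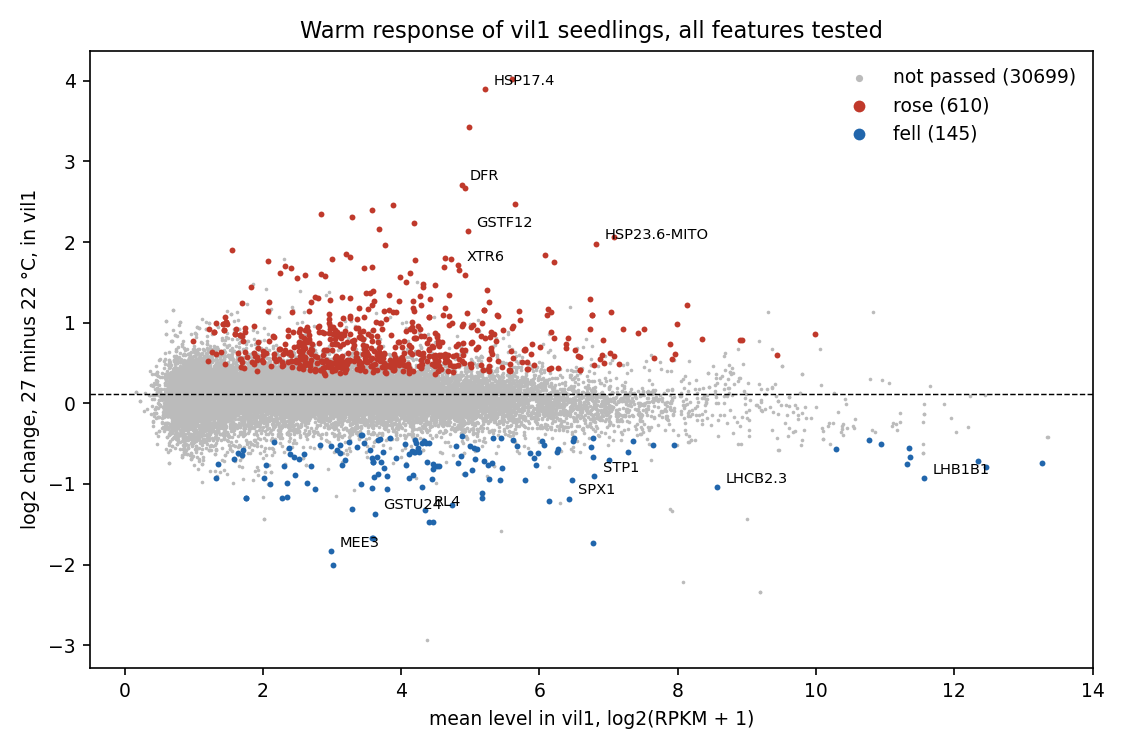
Change of each tested feature in vil1 (vertical axis, log2, 27 minus 22 °C) against its mean level in vil1 (horizontal axis, log2(RPKM + 1)); red features rose (610), blue fell (145), grey did not pass, and the dashed line is the median of all features (0.11). HSP17.4 and DFR stand at the top, MEE3 near the bottom, and the antenna gene LHB1B1 lies at the high-level end below the line.

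The small heat-shock proteins, which hold unfolding proteins in solution, rose together. Of 16 in the list, 7 had a name in the reference and were tested, and 6 rose, with a median change of 1.97. HSP17.4 was at 3.42 and 3.90 RPKM at 22 °C and at 61.4 and 75.7 RPKM at 27 °C. Its change of 3.89 (SE 0.25, adjusted p = 8.44e-05) was the largest among named genes that rose. HSP17.6II moved from 2.196 and 2.327 RPKM to 14.1 and 16.5 RPKM (2.31, SE 0.22, adjusted p = 0.000794). HSP17.6A, its neighbour on chromosome 5, moved from 4.62 and 4.44 RPKM to 19.3 and 22.05 RPKM (1.97, SE 0.17, adjusted p = 0.000503). The mitochondrial HSP23.6-MITO started higher, at 44.75 and 44.63 RPKM, and reached 179.8 and 179.1 RPKM (1.98, SE 0.31, adjusted p = 0.00967). Its SE, shared over groups, includes WT libraries at 27 °C of 66.3 and 139.3 RPKM. The ER-located ATHSP22.0 (1.08) and the cytosolic HSP18.2 (0.84) also rose, while the chloroplast protein HSP21 went from 1.03 and 0.87 RPKM to 2.53 and 2.204 RPKM without passing (adjusted p = 0.11). With any 1 of the 4 vil1 libraries left out, HSP17.4, HSP17.6II and HSP17.6A still passed, whereas HSP23.6-MITO, with the same size of change, reached adjusted p-values of 0.073 to 0.0857. ATHSP22.0 failed in all 4 of those fits and HSP18.2 in 3 (up to 0.298).

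Among the large chaperones and their partners, 11 of 30 rose and none fell (median 0.55). ROF2, a peptidyl-prolyl isomerase that works with HSP90, moved from 2.86 and 3.09 RPKM to 11.8 and 15.0 RPKM (1.85, SE 0.19, adjusted p = 0.00116). HSP90.1, the heat-inducible cytosolic HSP90, moved from 9.34 and 9.73 RPKM to 22.6 and 33.6 RPKM (1.44, SE 0.20, adjusted p = 0.00438), and its 27 °C libraries were less alike than its 22 °C libraries. The cytosolic HSP70 moved from 60.4 and 60.8 RPKM to 144.7 and 155.1 RPKM (1.29, SE 0.21, adjusted p = 0.011). MBF1C, a transcriptional coactivator of the heat response, was also higher in both libraries, from 14.7 and 14.3 RPKM to 31.1 and 33.1 RPKM (1.10, SE 0.10, adjusted p = 0.000719). Mitochondrial partners were among the other members that rose, namely MTHSC70-2 (0.84), Hsp89.1 (0.86), CLPB4 (0.59) and the co-chaperonin CPN10 (0.61). The constitutive cytosolic HSP90 genes overlapped between temperatures. HSP81-2 was at 55.2 and 62.2 RPKM at 22 °C and at 58.2 and 67.5 RPKM at 27 °C, and HSP81-3 at 62.8 and 71.8 RPKM and at 63.4 and 77.9 RPKM. Leaving out 1 vil1 library ended the call of HSP70 each time (adjusted p 0.0812 to 0.0999) and that of HSP90.1 once (0.0543, without the first 22 °C library), but not those of ROF2 or MBF1C. Hsp89.1 and CPN10 failed in all 4 of those fits and MTHSC70-2 and CLPB4 in 3 (up to 0.201), and median centring left 7 rises in the list.

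Chaperones of the endoplasmic reticulum, which fold secreted proteins, gave 7 rises and no fall among 16 genes (median 0.57), of which 2 rises were left under quantile normalization, 2 under median centring and 4 with the span trend removed. CNX1, the lectin chaperone calnexin, moved from 32.06 and 35.45 RPKM to 66.6 and 73.0 RPKM (1.03, SE 0.15, adjusted p = 0.0062). The ER-resident HSP70 proteins BIP2 (9.65 and 10.99 to 20.9 and 27.6 RPKM; 1.15, SE 0.20, adjusted p = 0.016) and BIP1 (11.7 and 13.4 to 23.57 and 31.7 RPKM; 1.07, SE 0.21, adjusted p = 0.0278) rose side by side, but they are close paralogs whose reads may have been split between them. SDF2, of ER quality control, moved from 17.0 and 16.7 RPKM to 28.9 and 29.6 RPKM (0.76, SE 0.10, adjusted p = 0.00346). BZIP60, a transcription factor of the unfolded protein response, stood at 41.4 and 39.8 RPKM and at 42.2 and 39.0 RPKM. The BIP1 and BIP2 calls were lost under median centring, under quantile normalization and without any 1 vil1 library, where adjusted p ranged from 0.0519 to 0.226 in the fits with a library left out. CNX1 failed in 3 of those 4 fits (up to 0.0823), and SDF2 in 1 (0.052).

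Heat shock transcription factors themselves changed little, with 2 rises among 21 and a median of 0.15 that fell to 0.00 under median centring. HSFA3, which acts in acquired heat tolerance, moved from 3.18 and 3.91 RPKM to 6.88 and 6.30 RPKM (0.74, SE 0.13, adjusted p = 0.0141). HSFA8 moved from 11.03 and 10.94 RPKM to 16.1 and 16.2 RPKM (0.52, SE 0.10, adjusted p = 0.0311). HSFA2, a main amplifier of the heat response, was at 5.47 and 5.12 RPKM and at 6.27 and 6.17 RPKM and did not pass. Both calls were lost when any 1 vil1 library was left out (adjusted p 0.0519 to 0.215), and that of HSFA8 also under median centring.

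The late anthocyanin enzymes, which turn colourless flavonoids into pigments and decorate them, were the list with the highest median, 2.17, with 6 rises among the 7 of 10 genes that had a name in the reference. DFR, the first committed step, moved from 5.50 and 8.27 RPKM to 49.2 and 50.5 RPKM (2.71, SE 0.30, adjusted p = 0.00153). LDOX, the next enzyme, moved from 6.46 and 8.045 RPKM to 52.75 and 49.98 RPKM (2.67, SE 0.20, adjusted p = 0.000218). For both, the 27 °C libraries were close to each other and several times above the 22 °C libraries. UF3GT, a glycosyltransferase, moved from 3.19 and 3.97 RPKM to 24.9 and 23.2 RPKM (2.45, SE 0.21, adjusted p = 0.000378). AT5MAT, a malonyltransferase, moved from 3.43 and 3.95 RPKM to 20.5 and 19.5 RPKM (2.17, SE 0.23, adjusted p = 0.00131). GSTF12, the carrier that brings anthocyanin to the vacuole, moved from 9.60 and 11.6 RPKM to 49.0 and 50.6 RPKM (2.14, SE 0.24, adjusted p = 0.00173). The exception was BGLU10, a glucosyltransferase, at 16.8 and 19.4 RPKM and at 16.9 and 17.5 RPKM. The remaining rise of the list is not named here and is not among the calls described next. The calls of DFR, LDOX, UF3GT, AT5MAT and GSTF12 held under every alternative run, each vil1 library left out in turn included.

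Upstream, 9 of 15 early flavonoid genes rose and none fell (median 0.72). TT4, chalcone synthase, moved from 172.5 and 164.4 RPKM to 380.7 and 405.8 RPKM (1.218, SE 0.19, adjusted p = 0.0105). TT7, flavonoid 3'-hydroxylase, moved from 4.54 and 4.51 RPKM to 13.3 and 11.95 RPKM (1.30, SE 0.22, adjusted p = 0.0141). F3H moved from 21.8 and 21.9 RPKM to 48.2 and 51.5 RPKM (1.15, SE 0.18, adjusted p = 0.00955), a value it shares with an overlapping locus. FLS1, which leads to flavonols, also rose (0.93), as did the flavonol activator MYB12 (0.65), while PAL2, at the entry to the pathway, was at 40.2 and 42.3 RPKM and at 43.1 and 46.8 RPKM. The TT4, TT7, F3H and MYB12 calls were lost without any 1 vil1 library (adjusted p 0.0707 to 0.129), and that of FLS1 in 2 of the 4 fits (up to 0.0519).

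Of 13 anthocyanin regulators, 1 rose and 1 fell. PAP1 (AT1G56650), the MYB activator of anthocyanin genes, moved from 7.295 and 8.193 RPKM to 22.99 and 24.42 RPKM (1.4996, SE 0.18, adjusted p = 0.00255), a call kept under every alternative run. LBD37, a repressor of anthocyanin and nitrogen-responsive genes, fell from 81.0 and 75.4 RPKM to 54.9 and 54.0 RPKM (-0.51, SE 0.10, adjusted p = 0.0218), a call lost without any 1 vil1 library (adjusted p 0.116 to 0.229). MYB90, the close relative of PAP1, was at 1.599 and 1.841 RPKM and at 2.75 and 3.50 RPKM and did not pass (adjusted p = 0.051). TT8, the bHLH partner of these MYB factors, stayed under 1 RPKM in all 4 libraries.

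**Figure D2:**
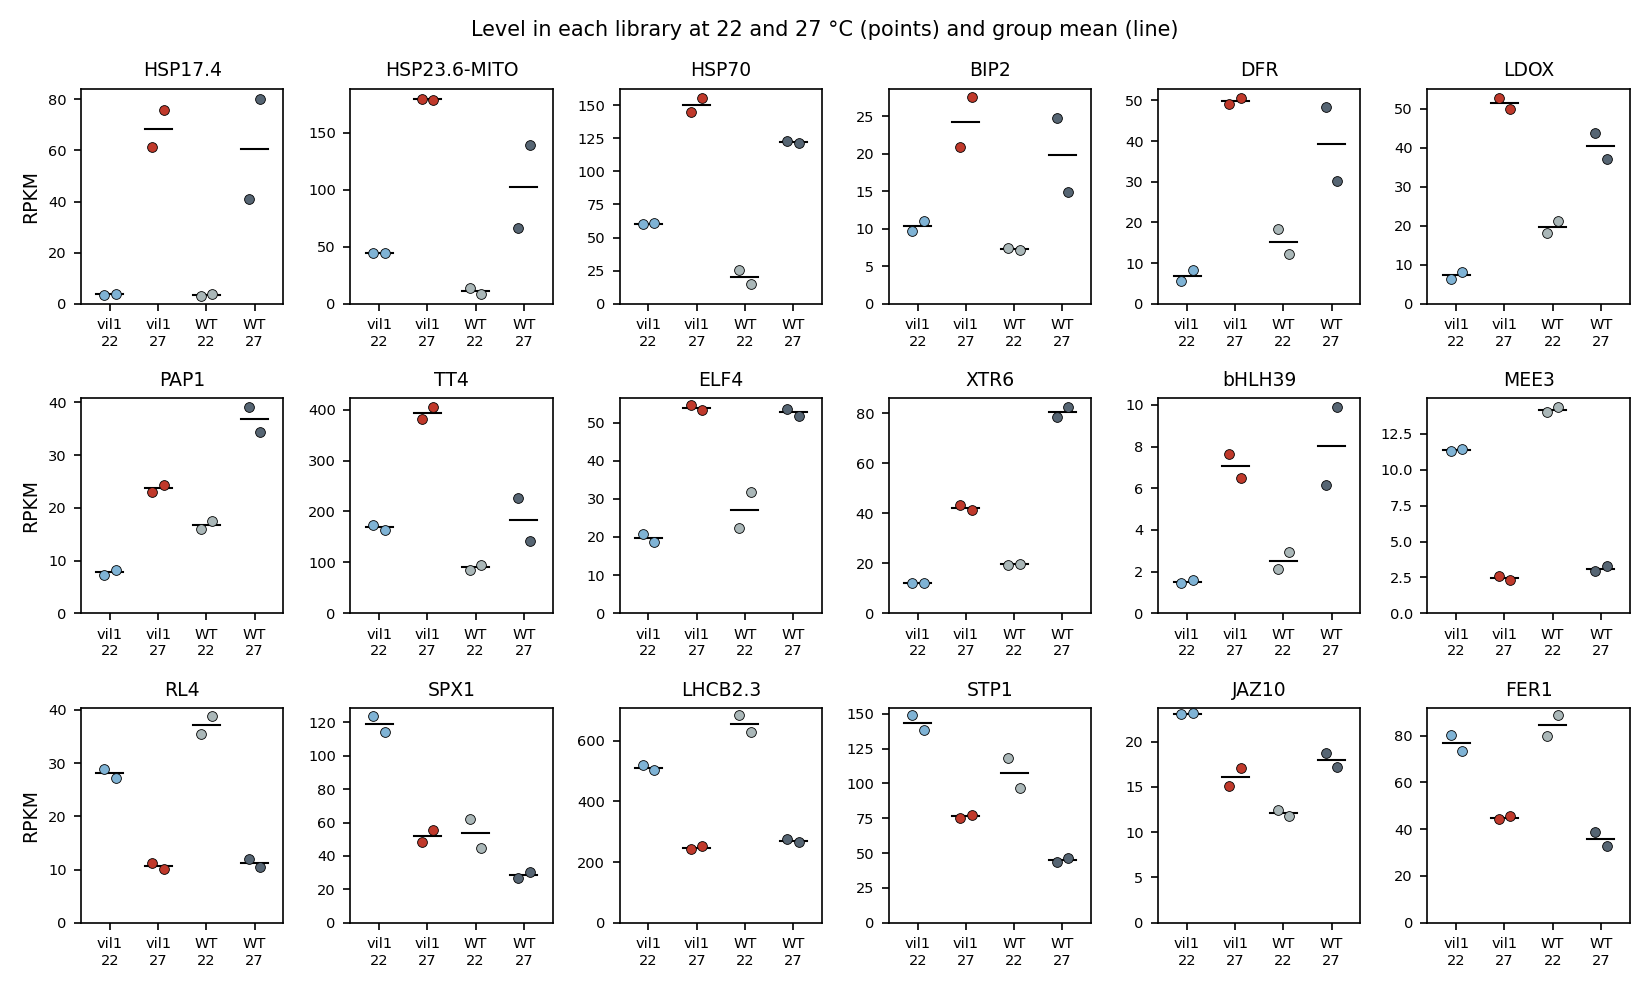
Level of 18 genes in RPKM (vertical axes, each from 0) in each of the 2 libraries per group for vil1 and WT at 22 and 27 °C, with points for libraries and a line for the group mean. All 18 were chosen among genes called in vil1. Every called feature was separated between temperatures in vil1, so their separation follows from the choice. DFR and LDOX start lower in vil1 than in WT at 22 °C, HSP70 and HSP23.6-MITO higher.

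The light-harvesting antenna had 10 falls and no rise among 20 genes (median -0.50), against 3 falls under quantile normalization and 14 under median centring. LHCB2.3 moved from 518.3 and 503.5 RPKM to 243.1 and 252.4 RPKM (-1.04, SE 0.10, adjusted p = 0.00082). LHB1B1 moved from 4100 and 3841 RPKM to 2109 and 2069 RPKM (-0.93, SE 0.10, adjusted p = 0.00162). Both libraries at 27 °C lay below both at 22 °C for each gene, which held for every feature that fell. CAB2 (7336 and 6845 to 4067 and 4134 RPKM; -0.79, SE 0.11, adjusted p = 0.00609) and LHCB2.2 (3286 and 3123 to 1859 and 1927 RPKM; -0.76, SE 0.11, adjusted p = 0.00692) fell with their neighbours CAB1, CAB3 and LHCB2.1, near-identical copies among which reads may have been split. All falls were in proteins of photosystem II antennae. The photosystem I antenna genes LHCA1 to LHCA4 had changes of -0.24 to -0.50, none of which passed. The minor members Lhca6 (0.19) and LHCB4.3 (0.54) lay above 0. The 20 genes summed to 71421 and 67688 RPKM at 22 °C and 46320 and 46433 RPKM at 27 °C, or 11.5% and 10.99% of all RPKM against 7.63% and 7.73%. The calls of LHCB2.3 and LHB1B1 held without any 1 vil1 library, while those of CAB2 and LHCB2.2 did not (adjusted p 0.052 to 0.0996) and were lost under quantile normalization, where the list median was -0.27. The other 6 falls were also lost without any 1 vil1 library (0.0656 to 0.240).

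Photosystem subunits and Rubisco moved less, with 1 fall among 26 (median -0.27) and 5 under median centring. PSAO, of photosystem I, went from 2050 and 1997 RPKM to 1455 and 1484 RPKM (-0.46, SE 0.10, adjusted p = 0.0391), a call lost without any 1 vil1 library (adjusted p 0.181 to 0.304). For 20 of the 26 genes both 27 °C libraries lay below both 22 °C libraries, against 10% of all features. Chlorophyll synthesis gave no call among 14 genes (median -0.05), and none of the 133 chloroplast-encoded features tested was called (median 0.03).

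Among 26 clock genes, 5 rose and none fell. ELF4, a member of the evening complex, moved from 20.8 and 18.7 RPKM to 54.5 and 53.3 RPKM (1.41, SE 0.14, adjusted p = 0.000834). COR27, a clock and cold regulator, moved from 5.03 and 5.57 RPKM to 16.0 and 14.5 RPKM (1.37, SE 0.18, adjusted p = 0.00368). TOC1 moved from 15.5 and 16.1 RPKM to 26.2 and 26.3 RPKM (0.70, SE 0.09, adjusted p = 0.00259). PCL1, which encodes another evening complex protein, also rose (0.60), as did PRR3 (2.03 and 2.35 to 4.04 and 3.65 RPKM; 0.60, SE 0.13, adjusted p = 0.0444), whereas ELF3, the remaining member of that complex, was at 7.45 and 7.72 RPKM and at 10.1 and 10.7 RPKM (adjusted p = 0.083). The morning genes overlapped, CCA1 at 4.93 and 5.39 RPKM and at 5.21 and 6.68 RPKM and LHY at 1.77 and 1.90 RPKM and at 2.19 and 1.79 RPKM. The list median of 0.10 turned to -0.05 under median centring. ELF4 and TOC1 kept their calls without any 1 vil1 library, COR27 lost its call without the first library of either temperature (up to 0.053), and PCL1 and PRR3 lost their calls each time (0.0837 to 0.321).

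Regulators and markers of warm growth did not rise as a group. Among 19 such genes tested of 20, 1 rose and 2 fell. In WT 4 of the 19 rose and 2 fell (median 0.12, against 0.02 in vil1), where 16.9% of all features rose and 3.61% fell. PIF4 was at 42.7 and 42.6 RPKM at 22 °C and at 35.8 and 36.5 RPKM at 27 °C (-0.23, SE 0.14, adjusted p = 0.427), and it passed in 1 alternative, the fit on the vil1 libraries alone (adjusted p = 0.0475). YUC8 was at 4.45 and 4.16 RPKM and at 5.12 and 4.63 RPKM (0.15, SE 0.10, adjusted p = 0.487). The libraries of both genes were separated between temperatures. IAA19, an auxin-response gene, overlapped at 3.66 and 3.36 RPKM and at 3.66 and 3.46 RPKM, and HB-2, a shade-response homeobox gene, was at 17.63 and 17.58 RPKM and at 16.0 and 16.2 RPKM (-0.12, SE 0.11, adjusted p = 0.616). IAA29, which is often induced with PIF4 activity, fell, from 4.51 and 3.91 RPKM to 2.25 and 1.88 RPKM (-0.77, SE 0.13, adjusted p = 0.0143). PAR1, an atypical bHLH that restrains elongation, fell from 16.5 and 15.8 RPKM to 9.64 and 8.11 RPKM (-0.80, SE 0.15, adjusted p = 0.022). BBX18 rose, from 12.9 and 12.4 RPKM to 20.4 and 20.2 RPKM (0.64, SE 0.13, adjusted p = 0.0364). All of these calls were lost without any 1 vil1 library (adjusted p 0.0638 to 0.222).

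Growth genes downstream were likewise not called as lists. No gene was called among 24 Aux/IAA and GH3 genes (median 0.00), 20 SAUR genes (median -0.02) or 26 genes of gibberellin and brassinosteroid (median 0.07, which turned to -0.09 under median centring). Cell-wall enzymes gave 5 rises and 1 fall among 28, and 2 of each under median centring. XTR6, a xyloglucan endotransglucosylase, moved from 12.2 and 12.2 RPKM to 43.4 and 41.1 RPKM (1.71, SE 0.13, adjusted p = 0.000317). XTH18 moved from 9.66 and 9.54 RPKM to 24.7 and 24.4 RPKM (1.269, SE 0.14, adjusted p = 0.00131). Replicates of these genes were nearly equal, and both calls held under every alternative run. XTH24 (565.6 and 529.4 to 857.1 and 807.2 RPKM; 0.60, SE 0.13, adjusted p = 0.0471) and XTH7 (111.9 and 102.7 to 164.7 and 159.1 RPKM; 0.59, SE 0.13, adjusted p = 0.0487) were at the edge of the threshold and passed in no fit that left out a vil1 library (0.167 to 0.287).

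RADIALIS-like genes, which encode short MYB-related proteins, held 4 falls among 6 members (median -1.12). MEE3 moved from 11.3 and 11.5 RPKM to 2.62 and 2.32 RPKM (-1.84, SE 0.15, adjusted p = 0.000356), the largest fall among named genes. RL4 moved from 28.9 and 27.2 RPKM to 11.2 and 10.03 RPKM (-1.33, SE 0.12, adjusted p = 0.000591), RL6 from 5.42 and 6.67 RPKM to 2.38 and 1.89 RPKM (-1.17, SE 0.14, adjusted p = 0.00259), and RL3 from 17.69 and 17.97 RPKM to 7.45 and 8.59 RPKM (-1.06, SE 0.13, adjusted p = 0.00225). These 4 calls held under every alternative run. RL5 overlapped, at 4.22 and 3.34 RPKM and at 3.89 and 3.71 RPKM.

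Iron regulation gave 5 rises and 1 fall among 14 genes (median 0.55). The 4 bHLH factors of subgroup Ib, which switch on iron uptake, all rose from low levels. bHLH39 moved from 1.45 and 1.58 RPKM to 7.67 and 6.50 RPKM (1.68, SE 0.21, adjusted p = 0.00295), bHLH38 from 0.89 and 1.88 RPKM to 6.68 and 6.53 RPKM (1.70, SE 0.32, adjusted p = 0.024), BHLH100 from 0.93 and 1.78 RPKM to 5.55 and 6.73 RPKM (1.62, SE 0.31, adjusted p = 0.0228) and BHLH101 from 2.45 and 3.04 RPKM to 10.7 and 9.63 RPKM (1.58, SE 0.25, adjusted p = 0.00955). The phloem iron transporter OPT3 also rose, from 20.3 and 21.9 RPKM to 41.6 and 41.1 RPKM (0.94, adjusted p = 0.0055), and the iron-storage protein FER1 fell, from 80.3 and 73.5 RPKM to 44.4 and 45.4 RPKM (-0.76, adjusted p = 0.0076). The root uptake genes IRT1 (2.04 and 2.04 to 4.34 and 2.95 RPKM) and FRO2 (1.43 and 1.65 to 2.62 and 1.82 RPKM) did not pass. NAS3, a nicotianamine synthase outside that list, fell from 26.9 and 28.2 RPKM to 13.63 and 14.15 RPKM (-0.94, SE 0.20, adjusted p = 0.0374). Without any 1 vil1 library bHLH39 still passed, and bHLH38, BHLH100, BHLH101, FER1 and NAS3 did not (0.0522 to 0.220), and OPT3 failed in 3 of the 4 fits (up to 0.0752).

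SPX1, a phosphate sensor, moved from 123.8 and 114.1 RPKM to 48.5 and 55.4 RPKM (-1.18, SE 0.16, adjusted p = 0.00487), and was the only call among 13 sulfur and phosphate genes. SRG3, a glycerophosphodiester phosphodiesterase, moved from 76.5 and 67.5 RPKM to 36.4 and 37.0 RPKM (-0.95, SE 0.17, adjusted p = 0.0161). STP1, a monosaccharide transporter, moved from 148.8 and 138.5 RPKM to 75.2 and 77.6 RPKM (-0.90, SE 0.13, adjusted p = 0.00624). Among 20 genes of starch breakdown and sugar starvation, only the beta-amylase BAM5 was called, at 0.98 and 0.96 RPKM and at 1.99 and 2.03 RPKM (0.61, SE 0.13, adjusted p = 0.0445). SRG3, STP1 and BAM5 passed in no fit that left out a vil1 library (0.0519 to 0.261), and SPX1 failed without the first library of either temperature (up to 0.0664).

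Other genes among the 16 largest named falls belong to none of the lists. The glutathione transferases GSTU24 (17.3 and 16.1 to 6.53 and 5.26 RPKM; -1.37, SE 0.17, adjusted p = 0.00259) and GSTF7 (47.1 and 49.7 to 22.8 and 20.7 RPKM; -1.12, SE 0.20, adjusted p = 0.0176) fell. The defensin-like SCRL22 also fell (14.05 and 11.7 to 4.56 and 4.59 RPKM; -1.31, SE 0.14, adjusted p = 0.00118). THI2.2, a thionin, fell as well (52.5 and 45.0 to 21.5 and 20.6 RPKM; -1.17, SE 0.20, adjusted p = 0.0143). ORA59, an ERF factor that joins jasmonate and ethylene signals, fell from 14.5 and 15.3 RPKM to 8.54 and 6.43 RPKM (-0.92, SE 0.14, adjusted p = 0.00907), and DTX1, an efflux carrier, from 41.3 and 40.2 RPKM to 23.8 and 21.4 RPKM (-0.82, SE 0.17, adjusted p = 0.0317). Of these, GSTU24 and SCRL22 still passed without any 1 vil1 library, and GSTF7, THI2.2 and DTX1 did not pass without any (0.0711 to 0.217). ORA59 passed only in the fit without the first 27 °C library (otherwise up to 0.0881).

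Jasmonate genes gave 1 rise and 3 falls among 20 (median -0.21), and no rise and 5 falls with the span trend removed. VSP1, a vegetative storage protein, rose from 24.6 and 26.8 RPKM to 49.3 and 63.1 RPKM (1.09, SE 0.21, adjusted p = 0.0257). AOC1, of jasmonate synthesis, fell from 161.5 and 156.7 RPKM to 94.0 and 100.1 RPKM (-0.71, SE 0.14, adjusted p = 0.0312). Among the JAZ repressors, TIFY7 fell from 189.9 and 185.1 RPKM to 120.9 and 124.9 RPKM (-0.61, SE 0.10, adjusted p = 0.0101) and JAZ10 from 23.0 and 23.1 RPKM to 15.1 and 17.1 RPKM (-0.50, SE 0.10, adjusted p = 0.0265). All 4 calls were lost without any 1 vil1 library (0.075 to 0.234). No gene was called among 16 of salicylic acid defence, and 1 rose under quantile normalization.

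Cold-regulated genes gave 1 rise and 2 falls among 16. The rise was GolS1, a galactinol synthase known to respond to heat as well (27.9 and 27.4 to 48.3 and 54.2 RPKM; 0.86, SE 0.12, adjusted p = 0.0062). The falls were the dehydrin LTI30 (56.9 and 52.3 to 28.9 and 32.9 RPKM; -0.80, SE 0.12, adjusted p = 0.00792) and the chloroplast membrane protein COR413IM1 (21.9 and 20.4 to 13.3 and 13.9 RPKM; -0.60, SE 0.10, adjusted p = 0.0125). Among 14 rapid stress regulators, the zinc-finger factor STZ (0.77, adjusted p = 0.00985), WRKY33 (0.81, adjusted p = 0.0395) and ERF6 (0.65, adjusted p = 0.0132) rose, and CBF1, CBF2 and DREB1A did not pass. Each of these 6 calls was lost in at least 3 of the 4 fits that left out a vil1 library (up to 0.296), and those of GolS1, WRKY33 and ERF6 also under median centring. CYP83A1, of aliphatic glucosinolate synthesis, was the only call among 18 glucosinolate genes (1.402 and 1.271 to 3.258 and 3.098 RPKM; 0.84, SE 0.13, adjusted p = 0.00816). ELIP1, an early light-induced protein, was the only one among 28 light genes (12.1 and 11.9 to 21.4 and 19.6 RPKM; 0.72, SE 0.10, adjusted p = 0.00629). With a vil1 library left out, CYP83A1 failed each time (0.0565 to 0.0854) and ELIP1 in 3 of 4 fits (up to 0.0848).

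Polycomb components showed no call among the 22 tested of 24 with a name. Their median of 0.16 fell to 0.01 under median centring. VEL1, a relative of VRN5, was at 13.1 and 13.5 RPKM and at 14.3 and 15.6 RPKM (0.16, SE 0.13, adjusted p = 0.591). FLC was at 4.69 and 4.72 RPKM and at 5.09 and 4.97 RPKM (0.08, SE 0.10, adjusted p = 0.721), a sign that turned under median centring, quantile normalization and removal of the span trend. FT, the mobile flowering signal, stayed under 1 RPKM in all 4 libraries and was not tested. Among 23 flowering genes, AGL20, the floral integrator also called SOC1, fell from 5.96 and 5.45 RPKM to 3.42 and 3.03 RPKM (-0.67, SE 0.11, adjusted p = 0.0101), as did the repressor SNZ (-0.40, adjusted p = 0.044). Of 22 developmental regulators that Polycomb keeps silent in leaves, only 14 reached the filter, and PI, a floral organ gene, rose from 3.12 and 2.51 RPKM to 6.07 and 5.96 RPKM (0.88, SE 0.15, adjusted p = 0.0128). The AGL20, SNZ and PI calls were lost without any 1 vil1 library (0.0538 to 0.295). None of 7 genes of the SWR1 complex and H2A.Z was called.

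**Figure D3:**
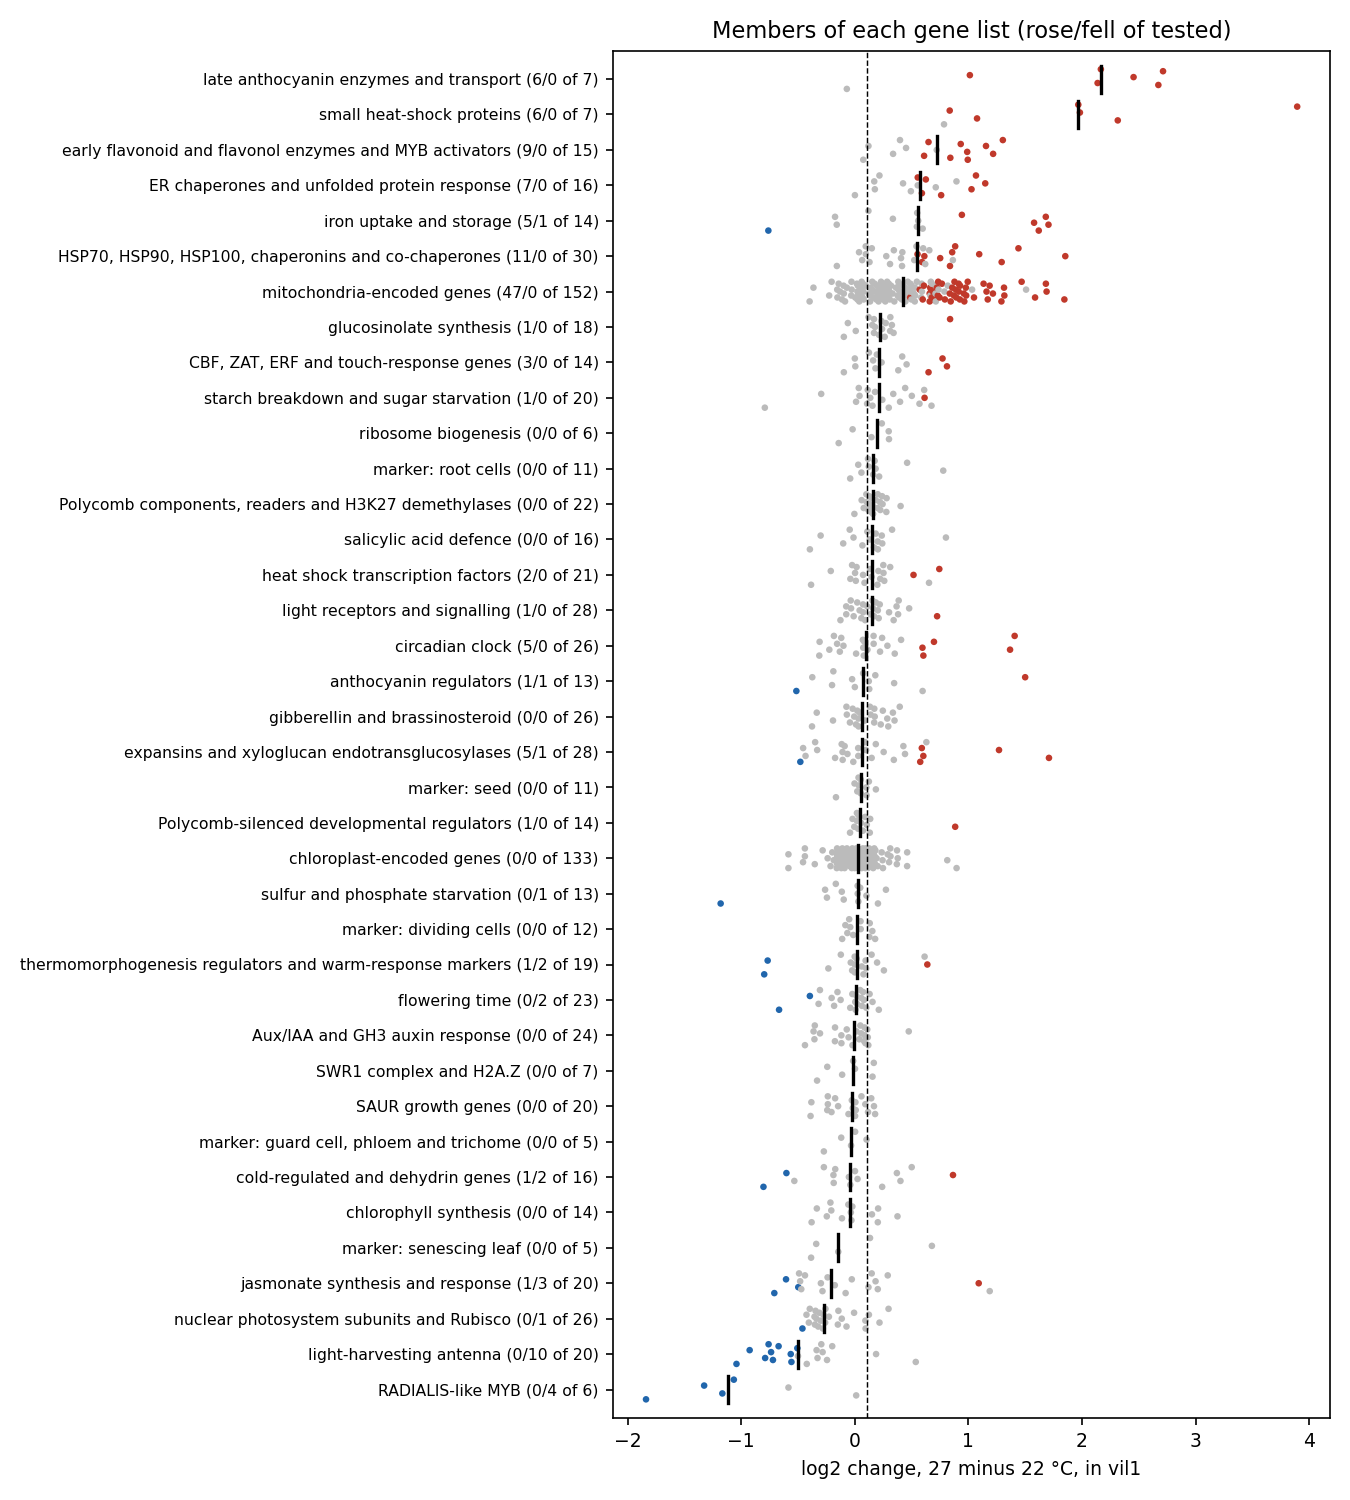
Change in vil1 (horizontal axis, log2, 27 minus 22 °C) of every tested member of each gene list, in order of the list median (black bar); red members rose, blue fell, grey did not pass, and the dashed line is the median of all features (0.11). Late anthocyanin enzymes and small heat-shock proteins are at the top with medians of 2.17 and 1.97, and the antenna and RADIALIS-like lists at the bottom with -0.50 and -1.12.

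In WT, where none of the 4 vil1 libraries enters the means, 5328 features rose at 27 °C (16.9%) and 1137 fell (3.61%). The adjustment was made within each comparison, so a similar change can pass in WT and not in vil1. VRN5, for example, changed by 0.28 in vil1 (adjusted p = 0.129) and by 0.30 in WT (adjusted p = 0.0289). Counts of calls in vil1 and WT are therefore not at the same cutoff of change. Of the 610 rises in vil1, 503 also rose in WT (82.5%, or 9.44% of the WT rises), and of the 145 falls 110 also fell (75.9%, or 9.67% of the WT falls). Only 2 features rose in vil1 and fell in WT, and 1 fell in vil1 and rose in WT. Both comparisons use the same SE for a gene, so their calls are not independent. Over all features tested, the 2 warm changes correlated at Pearson r = 0.44. The change correlated with gene span across features in WT (Spearman 0.40 over 29887 features) more than in vil1 (0.09). Within a group, the first library minus the second also correlated with span, at 0.34 (22 °C) and 0.33 (27 °C) in WT. In vil1 these values were -0.12 and -0.25. With the span trend removed, vil1 gave 391 rises and 400 falls, and WT counts with it removed are not given here. Why the counts moved was not tested. The difference of the 2 warm changes was tested for each feature, and with limma none passed (0.0%; lowest adjusted p = 0.129), while 3880 had an unadjusted p under 0.05, 1402 with a greater and 2478 with a smaller change in vil1. That balance turned under median centring (2755 greater and 1154 smaller) and was nearly even with the span trend removed (1696 and 1727). Voom on the recovered reads called 2 greater and 5 smaller, and a fit to nuclear protein-coding genes alone 1 and 8.

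The late anthocyanin genes lay furthest on the side of a greater change in vil1. DFR went from 18.3 and 12.3 RPKM to 48.3 and 30.1 RPKM in WT (1.29), and LDOX from 18.3 and 21.3 RPKM to 43.9 and 37.2 RPKM (1.00). The 27 °C levels were thus close to those of vil1, and the 22 °C levels of WT were above those of vil1. UF3GT changed by 0.70 in WT against 2.45 in vil1, and AT5MAT (0.55) and GSTF12 (0.48) did not pass in WT. Of 7 late anthocyanin genes, 5 had an unadjusted p for the difference under 0.05 with a greater change in vil1 and BGLU10 with a smaller one, against 12.3% of all features either way, and the count was the same with the span trend removed. LDOX and UF3GT passed for the difference under voom (lowest adjusted p = 0.0319 for each), and not in the fit across all features.

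The chaperones lay on the other side. Among the 30 HSP70, HSP90, HSP100, chaperonin and co-chaperone genes, 27 rose in WT (median 1.16 against 0.55 in vil1), and the vil1 change was the smaller one in 27, with an unadjusted p for the difference under 0.05 in 18 (16 with the span trend removed). HSP70 stood at 25.3 and 14.8 RPKM in WT at 22 °C, below the 60.4 and 60.8 RPKM of vil1, and at 123.2 and 121.4 RPKM at 27 °C (2.60). Hsp70-2 was at 15.1 and 15.9 RPKM and at 16.0 and 15.8 RPKM in vil1, and at 6.83 and 6.06 RPKM and at 15.0 and 13.5 RPKM in WT (difference -0.997, SE 0.13, adjusted p = 0.129). In both genes the vil1 libraries at 22 °C were already above those of WT. Of the 7 small heat-shock proteins, 1 had an unadjusted p for the difference under 0.05, and HSP17.4 changed by 3.74 in WT.

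SAUR genes, which act in cell expansion, had 10 falls among 20 in WT, where 3.61% of all features fell. None fell in vil1 in the main fit (0.461% of all features). Median centring, removal of the span trend and the fit on the vil1 libraries alone each gave 1 fall in vil1. An unadjusted p for the difference under 0.05 was reached by 9, against 12.3% of all features. With the span trend removed it was reached by 6, against 11.5% of all features. Antenna genes fell in both, 17 of 20 in WT, and all 20 had the smaller fall or greater rise in vil1, 7 with an unadjusted p under 0.05 (2 with the span trend removed, where 19 lay on that side, and 11 under median centring). RADIALIS-like genes fell by a median of 1.28 in WT, with 1 of 6 under 0.05. Of the 19 regulators and markers of warm growth, 1 was under 0.05 with a greater and 1 with a smaller change in vil1. That was 10.5% of them, against 12.3% of all features. JAZ10 went opposite ways, from 12.4 and 11.8 RPKM to 18.73 and 17.20 RPKM in WT (0.53, SE 0.10, adjusted p = 0.00557). At 22 °C vil1 was higher than WT, at 23.0 and 23.1 RPKM. At 27 °C vil1 was at 15.08 and 17.09 RPKM, 1 library barely below WT, and vil1 was not tested against WT there. The difference of the JAZ10 changes was -1.03 (SE 0.14, unadjusted p = 1.76e-05, adjusted p = 0.129), with the lowest adjusted p in an alternative at 0.0213. Among 20 jasmonate genes, 7 had an unadjusted p under 0.05 with the smaller change in vil1 and none with the greater, against 4 and none with the span trend removed and 3 and 1 under median centring. PCC1, a pathogen and clock controlled gene, varied within vil1 (9.28 and 5.66 to 7.93 and 4.06 RPKM; -0.30, SE 0.38, adjusted p = 0.738) and fell in WT (-1.78).

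**Figure D4:**
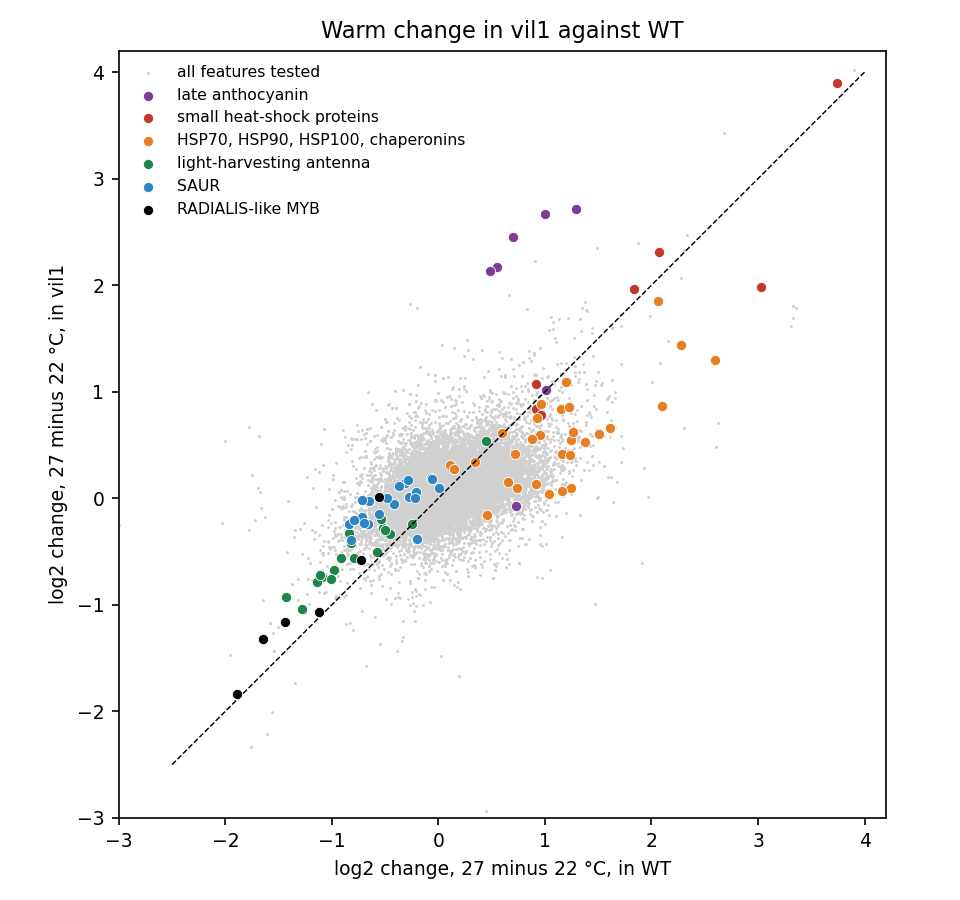
Warm change in vil1 (vertical axis, log2, 27 minus 22 °C) against that in WT (horizontal axis), with grey points for all tested features, coloured points for list members and a dashed line of equality. Of the 7 late anthocyanin genes, 6 lie above the line, 1 of them close to it, 27 of 30 HSP70, HSP90, HSP100, chaperonin and co-chaperone genes below it, and the RADIALIS-like genes close to it.

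Marker genes of other cell types did not pass in vil1 in the main fit. In the senescing leaf list, 1 fell under median centring, quantile normalization or removal of the span trend. With WT and vil1 libraries alone, 1 rose in that list. The fit on the vil1 libraries alone called 1 rise among root markers and 1 among those of senescing leaf. It also called 1 fall among markers of guard cell, phloem and trichome. Of 11 root markers tested, none was called in the main fit. The summed level of the 12 listed went from 445.2 and 468.9 RPKM to 742.4 and 789.9 RPKM. Nearly all of it came from PYK10, a root and hypocotyl beta-glucosidase (413 and 435 to 701 and 755 RPKM; 0.78, adjusted p = 0.073). In WT the sum went from 438.4 and 291.0 RPKM to 957.3 and 778.9 RPKM. The part of tissue make-up in the rises was not tested. Summed markers of dividing cells (28.9 to 31.2 RPKM over the 4 vil1 libraries), seed (12.1 to 14.3 RPKM) and senescing leaf (14.0 to 16.0 RPKM) overlapped between temperatures, and those of guard cell, phloem and trichome were 52.8 and 54.5 RPKM at 22 °C and 48.9 and 46.4 RPKM at 27 °C. No listed marker was at 0 in any vil1 library, which held for nearly all features and says nothing particular of these markers.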

How the data were processed

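The authors deposited 1 table of RPKM for 34262 features and 12 RNA-seq libraries, already scaled to depth and gene length; how strand was treated is not given in the sources used here. Per the submitters' processing notes, FastQC, HISAT2, Bowtie2, SAMtools, bedtools and edgeR were used with TAIR10, with no role given. Whole reads were recovered from the values for 99.94 to 99.95% of them (tolerance 0.02 reads, for 32532 of 32548 features with a span), which gave the depths; the deposited values divide by the whole gene span, introns included, so levels of intron-rich genes are understated. Of 32548 loci matched in the reference table (TAIR10.1), 10804 had a symbol.

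The test was limma 3.58.1 in R 4.3.3 on log2(RPKM + 1), 1 mean per group over all 12 libraries, with a variance trend, and Benjamini-Hochberg adjustment; it was tested on simulated data. The members, the 36 gene lists and the tests were chosen with earlier results of these data known. Genes were named by rule: VRN5; the 16 largest called rises and 16 largest called falls that carry a symbol, do not overlap between temperatures and reach 5 RPKM on average at 1 of them; up to 4 called members per list; the leading differences from WT past the threshold, of which there were none; and VEL1, FLC, FT, PIF4, YUC8, IAA19, IAA29, HSP70, HB-2 and PCC1. Genes named beyond that rule were chosen after their values were seen. Of the 76 called genes so named, 17 overlap another annotated locus, among them HSP17.4, MBF1C, F3H, TT4, GSTF12, LHCB2.3, STP1 and JAZ10, so their reads may include that locus. Alternatives are given in the closing section, and ChIP-seq samples and promoter sequences were not analysed here.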

Additional observations from a re-analysis of the deposited data

How the results depend on the processing

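Rises and falls numbered 379 and 332 under quantile normalization, 266 and 363 under median centring and 391 and 400 with the trend on gene span removed. They numbered 1576 and 512 with the vil1 libraries alone, 336 and 101 with WT and vil1 libraries alone, and 112 and 25 at a minimum log2 change of 1. Removal of the span trend with WT and vil1 libraries alone, chosen after seeing the data, gave 208 and 168. Leaving out 1 vil1 library left 116 to 179 rises and 25 to 34 falls, the lone library being assumed to vary like the other groups; fewer samples are part of that alternative. Of the 76 named genes that were called, 24 passed in all 4 such fits and 41 in none. All 145 falls were also called under median centring, with 266 of the 610 rises; elsewhere the cause of a change in counts was not tested. For the difference from WT, the greater and smaller changes called were 2 and 5 under voom on reads, 1 and 8 for nuclear protein-coding genes, and 0 and 1 with a pseudocount of 5; leaving out 1 vil1 library gave 0 to 2 and 0 to 1. The replicate number as a block gave 432 rises and 107 falls; same-numbered vil1 libraries deviated with a correlation of -0.08, so the numbers are not taken as pairs. Pseudocounts of 0.1 and 5, no filter, a mean RPKM of 5 or more, no variance trend, nuclear protein-coding genes, voom and background subtraction (the last chosen after seeing the data) kept both counts within 1.5 times.

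Signs turned for 4 genes that did not pass. FLC became -0.069 under quantile normalization, -0.071 under median centring, -0.077 with the span trend removed and -0.076 with that and WT and vil1 libraries alone. YUC8 became -0.00185 under quantile normalization and -0.00368 under median centring. IAA19 became -0.13 under quantile normalization and median centring, -0.087 with the span trend removed, -0.082 with that and WT and vil1 libraries alone and -0.0125 after background subtraction, and ranged from -0.031 to 0.065 with a library left out. PCC1 ranged from -0.71 to 0.11 with a library left out, above 0 without the first 22 °C or the second 27 °C library.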

Other observations

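Of 152 mitochondria-encoded genes tested, a group set by locus prefix, 47 rose in vil1 and none fell (median 0.43), and their summed level went from 1207 and 1171 RPKM to 2168 and 2061 RPKM, or 0.194% and 0.190% of all RPKM against 0.357% and 0.343%. In WT, 44 rose and 2 fell (median 0.25). ATMG01080 moved from 30.0 and 26.9 RPKM to 105 and 104 RPKM (1.84, adjusted p = 4.1e-05). On chromosome 2, where a copy of mitochondrial DNA lies in the nuclear genome, 20 of 129 loci numbered AT2G07600 to AT2G07899 rose and none fell, and reads of near-identical copies may be shared with the mitochondrial genes. Median centring lowered the list median to 0.28.

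Of the called features, 104 of 610 rises lay in 48 runs of adjacent loci and 32 of 145 falls in 14, overlapping and near-identical loci included; no share expected for all features was computed. Some runs hold known pathway clusters, picked here after seeing the calls. In the thalianol cluster of chromosome 5, which makes root triterpenes, CYP708A2 moved from 5.66 and 6.64 RPKM to 15.71 and 16.56 RPKM (1.26, adjusted p = 0.00775) and CYP705A5 from 12.8 and 14.4 RPKM to 38.4 and 33.6 RPKM (1.34, adjusted p = 0.00343), while the synthase THAS1 was at 5.01 and 5.58 RPKM and at 11.1 and 11.1 RPKM (adjusted p = 0.0702). In the marneral cluster, CYP705A12 (0.96) and CYP71A16 (0.92) rose, and the synthase MRN1 did not pass. The root marker PYK10 was at 413 and 435 RPKM and at 701 and 755 RPKM in the same libraries, and its part in these rises was not tested. The nitrile-specifier genes NSP1 (177.6 and 174.6 to 299.2 and 287.7 RPKM; 0.73, adjusted p = 0.00479), NSP3 (0.52) and NSP4 (0.74) of chromosome 3 and the squalene epoxidase-like SQP1 (1.12) and SQE6 (0.70) of chromosome 5 also rose, and each of these called genes also rose in WT. AIR1, a cell-wall protein of auxin-treated roots, rose with 3 neighbours of chromosome 4 (11.2 and 10.1 to 38.3 and 35.1 RPKM; 1.69, SE 0.28, adjusted p = 0.0129; 0.0804 to 0.113 with a vil1 library left out), and in WT from 14.8 and 29.4 RPKM to 286.9 and 168.0 RPKM (3.33).

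AT5G54550 and its neighbour AT5G54560 stood at 12.8 and 9.70 RPKM in the first vil1 27 °C library and between 1.06 and 1.71 RPKM in the other 3 vil1 libraries.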
